A study of Mus musculus with 12 samples.

Results

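The heat shock chaperone genes described here are 8 genes of the cytosolic protein folding machinery: Hspa1a, Hspa1b, Hspa8, Hsph1, Dnajb1, Dnaja1, Hsp90aa1 and Hspb1. They were chosen by name, with earlier results of these data known. Every probe set whose only annotated symbol was one of theirs was used, which gave 22 of 32533 probe sets and 8 of 15858 genes. The 12 arrays came from 4 groups of 3. All groups started from C57BL/6 bone marrow cells that had been immortalised by HoxA9, a homeobox gene that holds myeloid cells in an undifferentiated, proliferating state. The cells were carried into irradiated syngeneic mice and recovered from the marrow 4 weeks later as a GFP-positive sort. The IDH1mut group carried mutant isocitrate dehydrogenase 1, an enzyme whose cancer mutants make R-2-hydroxyglutarate (R-2HG), on the retroviral vector pSF91-IDH1mut-IRES-GFP. The R-2HG group carried the empty vector in mice that received R-2HG for 4 weeks at a daily dose of 1 mg. The IDH1wt group carried the normal enzyme on pSF91-IDH1wt-IRES-EGFP, and the empty vector group carried neither construct and had no treatment. In such vectors a retroviral promoter, and not that of Idh1, drives the insert, and the cells were immortalised before transduction, which limits them as a model of normal marrow. For the R-2HG samples the description disagrees with the other labels and names the IDH1mut vector. The empty vector given by title, source, construct and design was taken as right.

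Heat shock proteins are chaperones that bind unfolded proteins and let them refold or pass them on for degradation. HSP70 proteins hold the client, HSP40 proteins deliver it and start the ATPase cycle of HSP70, exchange factors release the nucleotide, and HSP90 finishes many kinases and receptors. The inducible members are switched on when unfolded protein frees heat shock factor 1 (HSF1), which binds repeats of the heat shock element in their promoters, whereas constitutive members such as Hspa8 are made in unstressed cells.

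The promoters of the members whose values differ most between groups are shown because they carry that element. RefSeq start windows on assembly GRCm38.p6 were found for 6 of the 8 genes, in 10 windows that reach 250 bases before and 50 bases after a gene start. A heat shock element was searched as GAANNTTC or TTCNNGAA, each of which is its own reverse complement and so covers both strands. The 250 bases before the start are printed below on the sense strand, 5′ to 3′, from chr17:34972157-34972406 (minus) for Hspa1a, chr17:34959239-34959488 (minus) for Hspa1b and chr5:149636337-149636586 (minus) for Hsph1. Capitals mark the matches.
Hspa1a: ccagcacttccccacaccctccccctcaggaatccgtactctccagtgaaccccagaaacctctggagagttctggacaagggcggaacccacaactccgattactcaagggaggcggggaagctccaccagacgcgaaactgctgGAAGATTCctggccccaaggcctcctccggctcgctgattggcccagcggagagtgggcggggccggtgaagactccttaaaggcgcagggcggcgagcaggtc
Hspa1b: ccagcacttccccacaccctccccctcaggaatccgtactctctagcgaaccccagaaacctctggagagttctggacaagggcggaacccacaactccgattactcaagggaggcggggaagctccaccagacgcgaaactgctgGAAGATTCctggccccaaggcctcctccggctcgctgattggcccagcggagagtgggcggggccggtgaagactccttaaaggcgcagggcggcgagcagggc
Hsph1: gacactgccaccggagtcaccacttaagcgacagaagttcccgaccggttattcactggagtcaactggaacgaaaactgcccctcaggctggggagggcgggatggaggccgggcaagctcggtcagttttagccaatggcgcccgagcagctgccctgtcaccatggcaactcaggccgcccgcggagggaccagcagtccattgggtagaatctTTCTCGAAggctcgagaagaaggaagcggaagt
Hspa1a and Hspa1b hold the same match, GAAGATTC, which begins 104 bases before the gene start in both. Their windows differ at 4 of 300 positions (98.7% identical). In Hsph1 the match TTCTCGAA begins 33 bases before the start. Past that start the first Hsph1 window holds 2 more matches that overlap and together make a 3-unit element (GAANNTTCNNGAA or TTCNNGAANNTTC). The windows of the other members held 0 such elements. Hspb1 had 2 matches, beginning 117 and 97 bases before its start, and Dnaja1 had 1 match at 124 bases. Dnajb1 had 0 matches in these letters. A match stood in 15.1% of all 32851 windows, and a 3-unit match in 0.6%. The windows cover few of the bases that can control a gene, and a match is a description of the letters only.

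The values are RMA values on the log2 scale that had been centred for each probe set before deposit. They give differences between arrays and carry no level, so neither the labelled cell type nor the absence of other cell types could be checked from them, and no gene can be called more abundant than another. Whether each replicate is a mouse of its own is not in the labels, so p-values reflect only the variation among these arrays, and part of it may be technical. R-2HG replicates 1 and 2 stood apart from all other arrays on the first principal component (43.04 and 44.61, 45.9% of the variance), with R-2HG replicate 3 at 13.42 and no other array above 0.49. The main R-2HG results are therefore also given without those 2 arrays. They were also the most alike pair of the series (SD of their difference 0.178), against 0.35 and 0.362 from R-2HG replicate 3. Which of the R-2HG arrays is typical of the treatment was not tested. In these bulk samples, fewer cells of a type and less RNA per cell cannot be told apart. The arrays of 2 groups often did not overlap. Against empty vector this held for 41.1% of all genes in IDH1mut, 53.5% in R-2HG and 23.8% in IDH1wt. It held for 32.7% in IDH1mut against IDH1wt, 53.4% in R-2HG against IDH1wt and 47.9% in IDH1mut against R-2HG.

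The inducible HSP70 genes Hspa1a and Hspa1b were lower in each of the 3 other groups than in empty vector. Hspa1a was -0.22, -0.82 and -0.18 in IDH1mut, 0.38, 0.32 and 1.70 in R-2HG and -1.42, -0.77 and -1.33 in IDH1wt, against 3.90, 3.91 and 3.77 in empty vector (centred log2 values of replicates 1, 2 and 3). The empty vector arrays lay above all 9 others, and their own spread was small beside the gap. The share of all genes with that order was not counted. Against empty vector, Hspa1a was 19.3-fold lower in IDH1mut, with a log2 fold change of -4.27 ± 0.32 (SE, n = 3 per group) and an adjusted p = 1e-05 by limma. It was 8.34-fold lower in R-2HG (-3.06 ± 0.32, adjusted p = 7.26e-05). It was 32.8-fold lower in IDH1wt (-5.03 ± 0.32, adjusted p = 6.43e-06). The difference from empty vector was thus present with the wild-type construct, with the mutant one and in R-2HG, which carried neither. All 3 comparisons use the same empty vector arrays. A high value there and a low value in the other groups cannot be told apart.

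Hspa1b, a near-identical copy of Hspa1a on chromosome 17, had the same pattern. It was -0.75, -1.52 and -0.69 in IDH1mut, 0.00, -0.06 and 1.33 in R-2HG and -3.17, -1.97 and -2.59 in IDH1wt, against 2.45, 2.61 and 2.40 in empty vector. Again the 9 other arrays all lay below those of the empty vector. Hspa1b was 11.1-fold lower in IDH1mut (-3.47 ± 0.37, adjusted p = 8.51e-05), 4.18-fold lower in R-2HG (-2.06 ± 0.37, adjusted p = 0.00121) and 33.5-fold lower in IDH1wt (-5.06 ± 0.37, adjusted p = 2.61e-05). All 3 Hspa1b probe sets passed in each comparison, beside 21.9%, 39.5% and 1.94% of all probe sets in IDH1mut, R-2HG and IDH1wt, with log2 fold changes from -3.56 to -3.36 in IDH1mut, from -2.13 to -2.01 in R-2HG and from -5.42 to -4.82 in IDH1wt. Hspa1a rested on 1 probe set. Probe sets of the copies can detect both transcripts, so the pair cannot be counted as separate evidence.

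Ranked by log2 fold change among all 15858 genes, Hspa1a was number 1 and Hspa1b number 2 from the bottom in IDH1mut against empty vector. In IDH1wt against empty vector Hspa1b was number 1 and Hspa1a number 2. In R-2HG against empty vector they were numbers 9 and 32. The ranks are a description, since the genes were chosen with earlier results known. Without R-2HG replicates 1 and 2, Hspa1a stayed lower in R-2HG than in empty vector (-2.16, adjusted p = 0.00311), and Hspa1b stood at -1.16 (adjusted p = 0.0871). The remaining array is assumed there to vary like the other groups.

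The other groups also differed among themselves, in the order R-2HG, IDH1mut and IDH1wt from high to low. Hspa1a was 1.97 ± 0.32 higher on the log2 scale in R-2HG than in IDH1wt (adjusted p = 0.000678), and Hspa1b 3.00 ± 0.37 higher (adjusted p = 0.000196). The arrays of those groups did not overlap for either gene. Without R-2HG replicates 1 and 2 the differences were 2.87 (adjusted p = 0.00103) and 3.91 (adjusted p = 0.00113). Hspa1b was 3.01-fold higher in IDH1mut than in IDH1wt (1.59 ± 0.37, adjusted p = 0.0131), with no overlap, but the call was lost without IDH1wt replicate 1 (1.30, adjusted p = 0.0552) or without IDH1mut replicate 3 (1.44, adjusted p = 0.0525). For Hspa1a the same neighbours overlapped and did not pass (0.77 ± 0.32, adjusted p = 0.128). Between IDH1mut and R-2HG, Hspa1a differed by -1.21 ± 0.32 (adjusted p = 0.0133) and Hspa1b by -1.41 ± 0.37 (adjusted p = 0.0135). Without IDH1mut replicate 2 these were -1.001 (adjusted p = 0.0511) and -1.14 (adjusted p = 0.0522). They were -2.11 (adjusted p = 0.00551) and -2.32 (adjusted p = 0.0223) without R-2HG replicates 1 and 2. The lower end of the order is thus the least settled for Hspa1a.

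**Figure D1:**
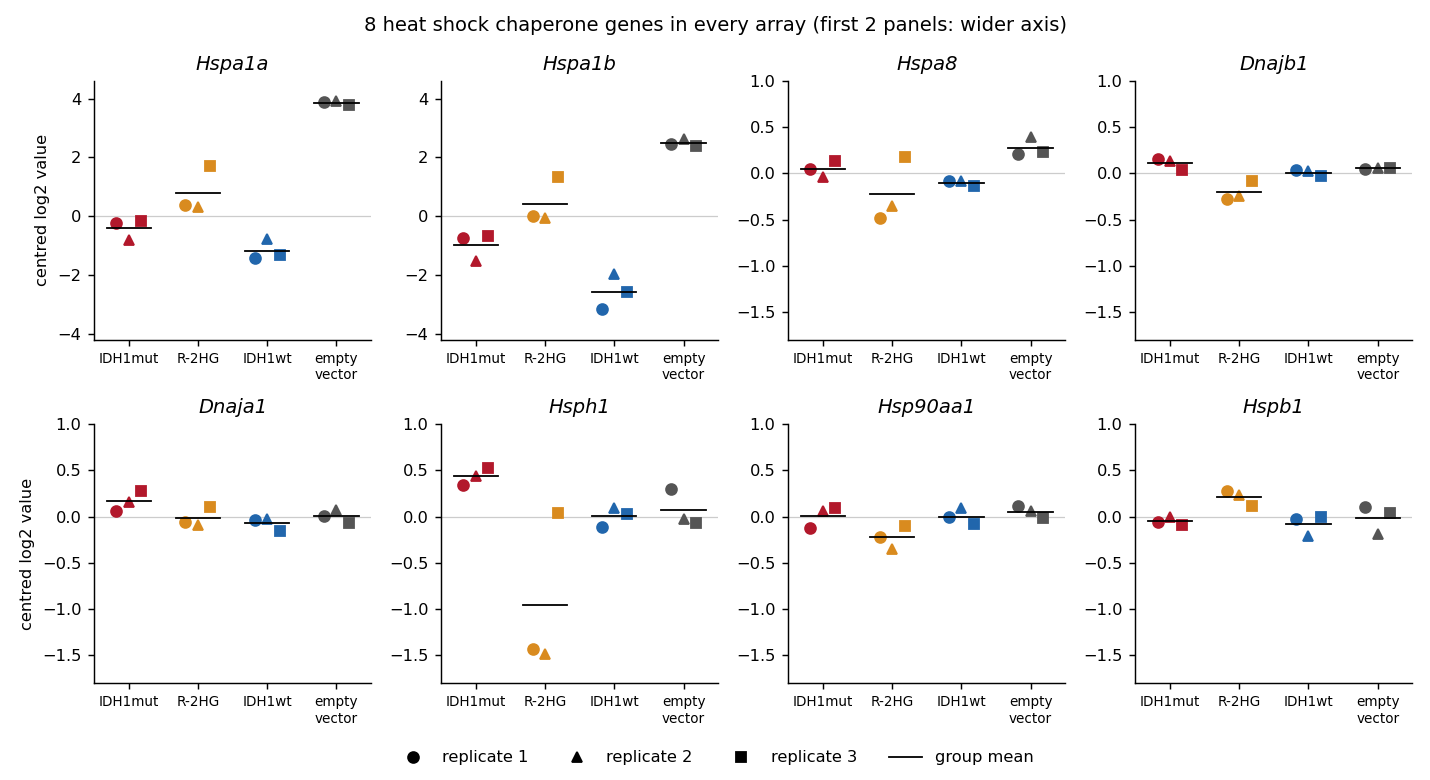
Centred log2 values of the 8 genes in each of the 12 arrays, with 1 point per array, a bar at the mean of each group and a panel for each gene. For Hspa1a and Hspa1b the 3 empty vector arrays lie between 2.40 and 3.91, above all other arrays, while the other genes stay within a narrow band apart from Hsph1 in R-2HG.

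The constitutive HSP70 gene Hspa8, which folds new proteins and strips clathrin from vesicles, changed far less. It was 0.05, -0.04 and 0.14 in IDH1mut, -0.48, -0.35 and 0.17 in R-2HG and -0.08, -0.09 and -0.13 in IDH1wt, against 0.21, 0.40 and 0.23 in empty vector. In the mean of its probe sets the empty vector arrays lay above the other 9. Among the single probe sets only 1431182_at, described below, had that order. Hspa8 fell in R-2HG (-0.50 ± 0.14, adjusted p = 0.0125). It did not pass in IDH1mut (-0.23 ± 0.14, 95% interval -0.53 to 0.07, adjusted p = 0.255) or in IDH1wt (-0.38 ± 0.14, adjusted p = 0.194). The R-2HG call was lost without R-2HG replicate 1 (adjusted p = 0.0577), R-2HG replicate 2 (adjusted p = 0.0539) or empty vector replicate 2 (adjusted p = 0.0529), and without both R-2HG arrays the value was -0.11 (adjusted p = 0.592).

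Of the 4 Hspa8 probe sets, 1 behaved differently from the rest. Probe set 1431182_at was 0.45, 0.00 and 0.46 in IDH1mut, -0.46, -0.34 and 0.52 in R-2HG and -0.60, -0.37 and -0.53 in IDH1wt, against 0.59, 0.80 and 0.91 in empty vector. All empty vector arrays lay above the others, with the IDH1wt mean lowest, and this probe set fell in IDH1wt (-1.27 ± 0.22, adjusted p = 0.0116). The other 3 probe sets were between -0.09 and -0.07 in IDH1wt, with the lowest adjusted p = 0.723. In IDH1mut 1431182_at stood at -0.46 ± 0.22 (adjusted p = 0.156). Which Hspa8 transcripts each probe set reads was not examined.

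Hsph1 encodes HSP110, which releases nucleotide from HSP70 and helps it to dissolve aggregates. It was 0.34, 0.44 and 0.53 in IDH1mut, -1.44, -1.49 and 0.04 in R-2HG and -0.11, 0.09 and 0.03 in IDH1wt, against 0.30, -0.02 and -0.07 in empty vector. R-2HG replicates 1 and 2 were far below all other arrays, and R-2HG replicate 3 lay within the empty vector range. The test called Hsph1 2.04-fold lower in R-2HG (-1.03 ± 0.30, adjusted p = 0.0182), but the call rested on those arrays. It stood at -0.04 (adjusted p = 0.91) without both, and it was lost without R-2HG replicate 1 (-0.80, adjusted p = 0.0801), without R-2HG replicate 2 (-0.77, adjusted p = 0.0825) and without empty vector replicate 1 (-0.92, adjusted p = 0.059). In IDH1mut every array lay above the empty vector arrays, yet the difference did not pass (0.37 ± 0.30, 95% interval -0.30 to 1.03, adjusted p = 0.435). It did pass when only those 6 arrays were fitted (adjusted p = 0.0462). In IDH1wt Hsph1 was -0.07 ± 0.30 (adjusted p = 0.939).

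The HSP40 members moved little. Dnajb1, the inducible partner of HSP70, was 0.16, 0.14 and 0.04 in IDH1mut, -0.28, -0.24 and -0.08 in R-2HG and 0.03, 0.02 and -0.03 in IDH1wt, against 0.04, 0.06 and 0.06 in empty vector. R-2HG was the lowest group, without overlap with empty vector. All R-2HG arrays lay below all empty vector arrays for 29.8% of all genes. Dnajb1 fell in R-2HG by 0.26 ± 0.07 on the log2 scale (adjusted p = 0.012), a call lost without R-2HG replicate 1 (adjusted p = 0.0571) or 2 (adjusted p = 0.05, not under the threshold). Without both arrays the value was -0.14 (adjusted p = 0.382). Its log2 fold change was 0.06 in IDH1mut (95% interval -0.09 to 0.21, adjusted p = 0.602). In IDH1wt it was -0.05 (95% interval -0.20 to 0.10, adjusted p = 0.79). A decrease the size of that of Hspa1a is outside both intervals.

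Dnaja1, a farnesylated HSP40 of the cytosol, was 0.06, 0.16 and 0.28 in IDH1mut, -0.06, -0.09 and 0.10 in R-2HG and -0.04, -0.03 and -0.15 in IDH1wt, against 0.01, 0.07 and -0.07 in empty vector. The groups overlapped with empty vector in all 3 comparisons. Its log2 fold changes were 0.16 ± 0.08 in IDH1mut (adjusted p = 0.182), -0.02 ± 0.08 in R-2HG (adjusted p = 0.876) and -0.08 ± 0.08 in IDH1wt (adjusted p = 0.689). One of its 3 probe sets, 1460179_at, passed upwards in IDH1mut (0.28 ± 0.09, adjusted p = 0.0339).

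Hsp90aa1, the inducible cytosolic HSP90, was -0.12, 0.06 and 0.09 in IDH1mut, -0.22, -0.35 and -0.11 in R-2HG and -0.01, 0.09 and -0.08 in IDH1wt, against 0.12, 0.06 and -0.02 in empty vector. R-2HG lay below empty vector in all 3 arrays, by 0.28 ± 0.09 on the log2 scale (adjusted p = 0.0233). This call was lost without empty vector replicate 1 (adjusted p = 0.0708) or 2 (adjusted p = 0.0641), and equally without 1 array of R-2HG, replicate 1 (adjusted p = 0.0589) or 2 (adjusted p = 0.103). The value was -0.16 (adjusted p = 0.42) without both R-2HG arrays. The probe sets disagreed in size and direction: 1426645_at was -0.72, -0.90 and -0.40 in R-2HG against 0.23, 0.12 and 0.00 in empty vector. It differed by -0.79 ± 0.15 (adjusted p = 0.00137), 1437497_a_at differed by -0.63 (adjusted p = 0.0183), and the remaining 3 did not pass, with values from -0.12 to 0.22. Over all probe sets 39.5% were called in this comparison. Hsp90aa1 was -0.04 ± 0.09 in IDH1mut (adjusted p = 0.768) and -0.05 ± 0.09 in IDH1wt (adjusted p = 0.807).

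Hspb1, the small heat shock protein HSP27 (HSP25 in mouse), which holds unfolded protein without ATP, was -0.06, 0.00 and -0.09 in IDH1mut, 0.28, 0.24 and 0.12 in R-2HG and -0.03, -0.21 and 0.00 in IDH1wt, against 0.10, -0.19 and 0.04 in empty vector. The R-2HG arrays lay above the empty vector arrays, the direction opposite to the members called in that comparison. The difference of 0.23 ± 0.09 did not pass (95% interval 0.03 to 0.42, adjusted p = 0.0613), but it did against IDH1wt (0.29 ± 0.09, adjusted p = 0.0213). That call was lost without R-2HG replicate 1 (adjusted p = 0.0785), R-2HG replicate 2 (adjusted p = 0.0659) or IDH1wt replicate 2 (adjusted p = 0.0827). With R-2HG replicates 1 and 2 left out it was 0.20 (adjusted p = 0.359). Against empty vector 1 of its probe sets passed in R-2HG (1422943_a_at, 0.47 ± 0.13, adjusted p = 0.0136), and the other was at -0.02 (adjusted p = 0.917). In IDH1mut Hspb1 was -0.03 ± 0.09 (adjusted p = 0.826), and in IDH1wt -0.06 ± 0.09 (adjusted p = 0.774).

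**Figure D2:**
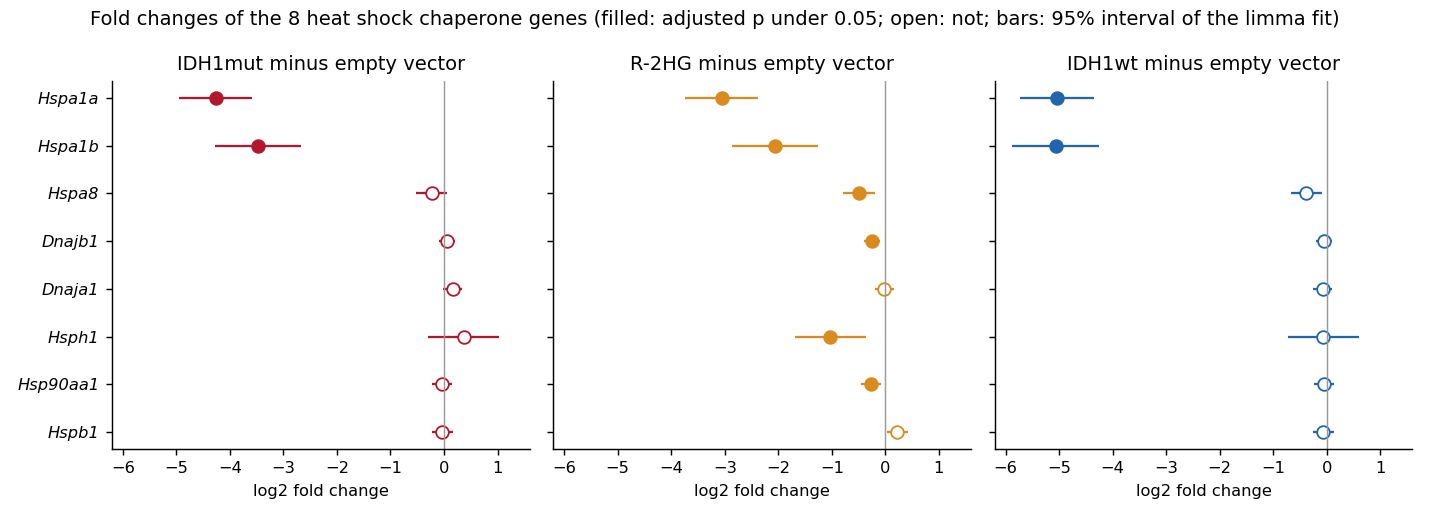
Log2 fold changes of the 8 genes in IDH1mut, R-2HG and IDH1wt against empty vector, with 95% intervals of the limma fit (n = 3 arrays per group). Filled points have an adjusted p under 0.05. Hspa1a and Hspa1b lie between -5.06 and -2.06 in all 3 comparisons, and every other gene lies between -1.03 and 0.37.

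**Figure D3:**
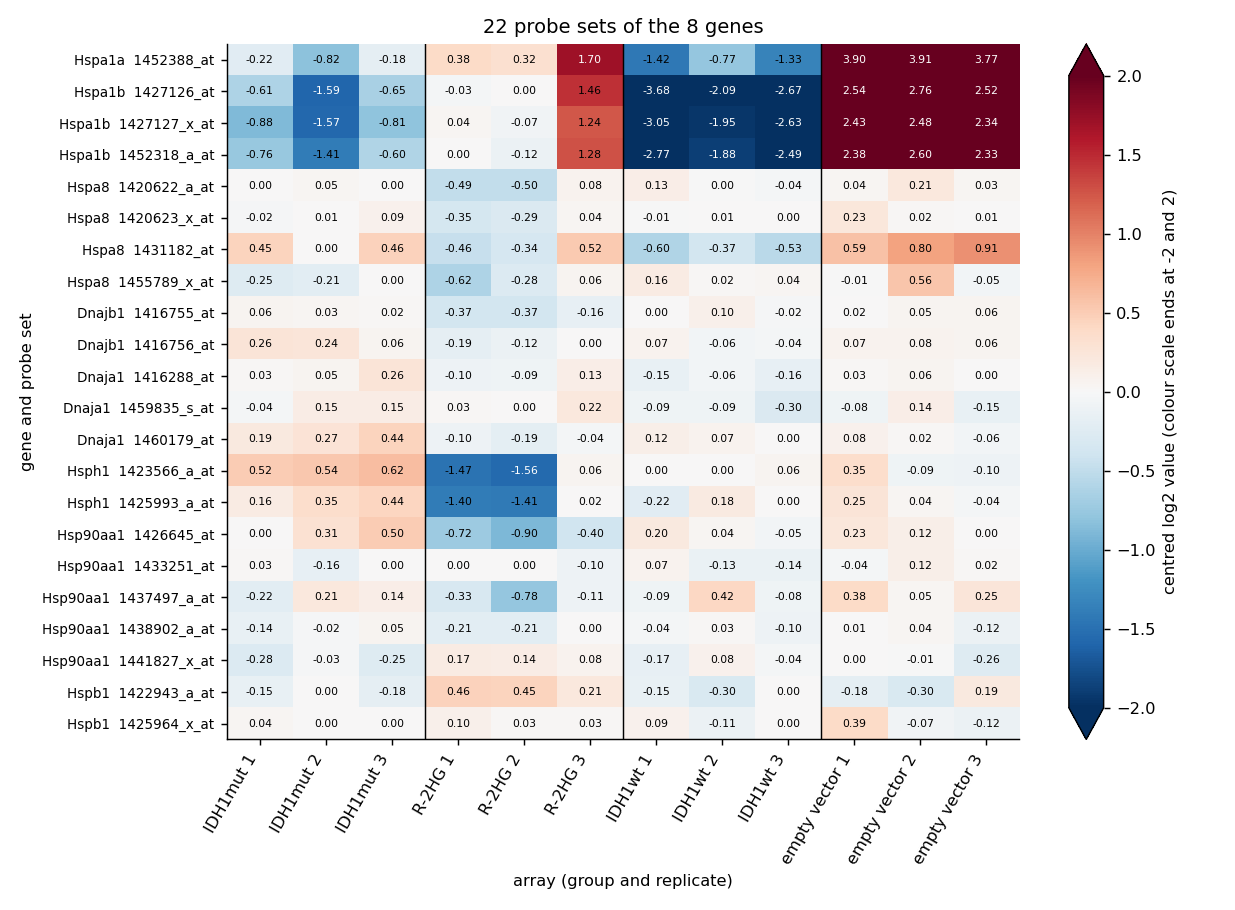
Heat map of the centred log2 values of the 22 probe sets of the 8 genes (down the page) in the 12 arrays (across), with the value in each cell. The 4 probe sets of Hspa1a and Hspa1b are highest in the 3 empty vector arrays and next highest in R-2HG replicate 3, and 1 probe set of Hspa8 (1431182_at, 0.59, 0.80 and 0.91 in empty vector) differs from the other 3 of that gene.

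By count, 2 of the 8 genes were lower and 0 higher in IDH1mut than in empty vector, where limma called 22.6% of all genes and 12.1% were lower, so the count itself is not far from the background. In R-2HG 6 were lower and 0 higher, where 40.8% of all genes were called and 24.3% were lower. In IDH1wt 2 were lower and 0 higher, where 1.35% were called and 0.561% were lower. Hspa1a and Hspa1b were the 2 genes in IDH1mut and IDH1wt, and Hspa8, Hsph1, Dnajb1 and Hsp90aa1 joined them in R-2HG. Probe sets of Hspa1a and Hspa1b can detect both transcripts, so the calls of that pair are not separate evidence. The median log2 fold change of the 8 genes was -0.039 in IDH1mut, -0.388 in R-2HG and -0.072 in IDH1wt, beside -0.0471, 0.003 and -0.0356 over all genes. These 3 comparisons share the empty vector arrays, so a gene that stands apart in those arrays can be called in all of them. An F test over the 3 comparisons together called 54.6% of all genes. Among the 8 genes its adjusted p was 6.55e-06 for Hspa1a, 2.9e-05 for Hspa1b, 0.0114 for Dnajb1, 0.0118 for Hsph1 and 0.0363 for Hspa8. It was 0.0504 for Hspb1, 0.0546 for Hsp90aa1 and 0.0999 for Dnaja1, which did not pass.

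The R-2HG count depended on single arrays. Without R-2HG replicate 3 it rose to 7 members, with Hspb1 higher (adjusted p = 0.0412), where 44.3% of all genes were called. Without R-2HG replicate 1, or without R-2HG replicate 2, 2 members were called, Hspa1a and Hspa1b, where 29.2% or 28.9% of all genes were called. Without both arrays 1 was called, Hspa1a, where 11.5% of all genes were called. Medians of markers of other cells also differed between these arrays and R-2HG replicate 3. Markers of mast cells, basophils and eosinophils (14 genes) had a median of -1.768, -1.904 and 0.052 in R-2HG replicates 1, 2 and 3, against 0 to 0.048 in empty vector. The median of 15 erythroid markers was -0.936, -0.997 and 0 in R-2HG, against -0.679 to -0.549 in empty vector. That of 13 B cell markers ran from -0.627 to -0.174 in R-2HG, against 0 to 1.038 in empty vector. By count, R-2HG against empty vector had 6 lower and 1 higher of the 14 mast cell, basophil and eosinophil markers. It had 0 lower and 1 higher of the 15 erythroid markers, and 4 lower and 0 higher of the 13 B cell markers. The shares called were 50%, 6.67% and 30.8%, the last 2 below the 40.8% of all genes. The part of these markers in the R-2HG results was not tested. The erythroid median was 0.119 to 0.335 in IDH1mut and -0.767 to 0.236 in IDH1wt, and the mast cell, basophil and eosinophil median -0.548 to -0.024 and 0 to 0.432. The B cell median was 0.409 to 1.301 in IDH1mut and -0.585 to 0.495 in IDH1wt. Neutrophil markers went both ways against empty vector, with 4 lower and 6 higher of 14 in IDH1mut (log2 fold changes from -1.101 to 2.147) and 4 lower and 6 higher in R-2HG (from -0.624 to 1.222). Monocyte and macrophage markers had 4 lower and 1 higher of 14 in IDH1mut and 4 lower and 0 higher in R-2HG, and T and NK cell markers 1 lower and 3 higher of 13 in IDH1mut and 3 lower and 2 higher in R-2HG. The shares called of these 3 lists were, in that order, 71.4%, 35.7% and 30.8% in IDH1mut, beside 22.6% of all genes. In R-2HG they were 71.4%, 28.6% and 38.5%, the last 2 below the 40.8% of all genes. In IDH1wt 0 markers of these 3 lists were called, where 1.35% of all genes were. Their part in the results was not tested.

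In the comparisons that leave out empty vector, Hsph1 and Dnajb1 were again lower in R-2HG, and Hspb1 again higher. Hspa1a and Hspa1b, lower in R-2HG than in empty vector, were higher in R-2HG than in IDH1mut or IDH1wt. In IDH1mut against R-2HG, 3 of the 8 genes were lower and 2 higher, where 36% of all genes were called, 15.8% lower and 20.3% higher. Those lower were Hspa1a, Hspa1b and Hspb1 (-0.26 ± 0.09, adjusted p = 0.0403). Those higher were Hsph1 (1.40 ± 0.30, adjusted p = 0.00585) and Dnajb1 (0.31 ± 0.07, adjusted p = 0.00627). Without R-2HG replicates 1 and 2 the difference was 0.40 for Hsph1 (adjusted p = 0.159) and 0.19 for Dnajb1 (adjusted p = 0.258). The Hspb1 call was lost without any 1 of the 3 IDH1mut arrays or of R-2HG replicates 1 and 2 (adjusted p = 0.0623 to 0.129). In R-2HG against IDH1wt, 2 were lower and 3 higher, where 44.4% of all genes were called, 23% lower and 21.4% higher. The lower genes were Hsph1 (-0.97 ± 0.30, adjusted p = 0.0232, arrays overlapping) and Dnajb1 (-0.21 ± 0.07, adjusted p = 0.0283), and the higher ones Hspa1a, Hspa1b and Hspb1. Without R-2HG replicate 1 or 2, Hsph1 (adjusted p = 0.0985 or 0.102) and Dnajb1 (adjusted p = 0.112 or 0.0975) did not pass. Nor did Hsph1 without IDH1wt replicate 2 (adjusted p = 0.0624) or 3 (adjusted p = 0.0574), or Dnajb1 without IDH1wt replicate 1 (adjusted p = 0.0706) or 2 (adjusted p = 0.0671). In IDH1mut against IDH1wt, Hspa1b was the 1 gene called, and higher, where 15.7% of all genes were called and 8.37% were higher.

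Other genes of the chaperone system are given by list. In IDH1wt against empty vector, 0 were called of 7 other HSP70 genes, 18 other HSP40 genes, 14 HSP90 co-chaperones and 9 small heat shock proteins. Nor was any of 9 HSP70 exchange factors, 16 genes of the TRiC chaperonin and prefoldin, 13 mitochondrial chaperones or 17 chaperones of the endoplasmic reticulum (ER). The medians of these 8 lists lay between -0.158 and -0.020. No HSP90 gene was among the 14. Hspb11 is counted with the small heat shock proteins by its symbol, and St13 with the exchange factors as an HSP70 cofactor. Of 18 heat shock factors and other inducible targets, 1 was called, Ier5, an immediate early gene (-0.54 ± 0.07, adjusted p = 0.00237). Dnajb4 is among the 18 and is also counted with the other HSP40 genes. The factors measured were Hsf2, Hsf4 and Hsf5, and Hsf1 was not among them.

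Against empty vector in IDH1mut, the ER chaperones had the most decreases of these lists, 12 lower and 0 higher of 17, with a median of -0.381. They included Pdia3, a disulfide isomerase (-0.56 ± 0.07, adjusted p = 0.000296), Sdf2l1 (-0.99 ± 0.14, adjusted p = 0.000406) and Calr, the calcium-binding lectin chaperone calreticulin (-0.50 ± 0.07, adjusted p = 0.000463). Mitochondrial chaperones had 5 lower and 0 higher of 13 (median -0.267), and TRiC and prefoldin 4 lower and 0 higher of 16 (median -0.133). Among exchange factors 3 were lower and 0 higher of 9, one of them Bag3, itself an inducible heat shock gene (-0.57 ± 0.13, adjusted p = 0.00789). Other HSP40 genes went both ways, 3 lower and 6 higher of 18, with Dnajc9 at -0.55 and Dnajb4 at 0.50. So did the HSP90 co-chaperones, 5 lower and 2 higher of 14, with the kinase co-chaperone Cdc37 at -0.28 and its relative Cdc37l1 at 0.38. Other HSP70 genes had 1 lower (Hspa4, -0.23) and 1 higher (Hspa12b, 0.38) of 7, and of 9 small heat shock proteins 0 were called. Of the heat shock factors and other inducible targets, 1 was lower and 3 higher of 18, the higher ones being Tcp11l2 (0.68), Rgs2 (0.71) and again Dnajb4. Over all genes 22.6% were called in this comparison and 12.1% were lower. The shares called of TRiC and prefoldin (25%), other HSP70 genes (28.6%) and the heat shock factor list (22.2%) were near that 22.6%.

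In R-2HG against empty vector, where 40.8% of all genes were called and 24.3% were lower, ER chaperones had 16 lower and 0 higher of 17 (median -0.350), with Manf at -0.94 ± 0.10 (adjusted p = 6.49e-05), the disulfide isomerase gene Pdia4 at -1.17 ± 0.13 (adjusted p = 8.79e-05) and Creld2 at -0.91 ± 0.10 (adjusted p = 9.13e-05). Mitochondrial chaperones had 11 lower and 1 higher of 13 (median -0.525), among them the protease subunit gene Clpp (-0.96). TRiC and prefoldin had 12 lower and 0 higher of 16 (median -0.371), among them the prefoldin subunit gene Pfdn4 (-0.84) and the TRiC subunit gene Cct6a (-0.63). Exchange factors had 6 lower and 0 higher of 9 (median -0.352), with the ER exchange factor Sil1 at -1.01 and Bag1 at -0.48. The HSP90 co-chaperones had 6 lower and 2 higher of 14, including Stip1, which links HSP70 to HSP90 (-0.46 ± 0.09, adjusted p = 0.00148). Without R-2HG replicates 1 and 2 fewer genes of each of these lists passed, as was so over all genes. The medians changed little for ER chaperones (-0.349) and exchange factors (-0.338). They were -0.477 for mitochondrial chaperones and -0.307 for TRiC and prefoldin. That of HSP90 co-chaperones was -0.114, beside -0.173 with all arrays. All these medians rest on 1 R-2HG array.

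The shares called of other HSP40 genes (33.3%) and small heat shock proteins (22.2%) lay below the 40.8% of all genes in R-2HG, and that of other HSP70 genes (42.9%) was near it. Other HSP70 genes had 3 lower and 0 higher of 7, with Hspa13 at -0.46. Other HSP40 genes had 3 lower and 3 higher of 18, with Dnajc9 at -0.50. Small heat shock proteins had 2 lower and 0 higher of 9, Hspb6 (-0.46) and Hspb11 (-0.77), the latter counted by its symbol. Heat shock factors and other inducible targets had 6 lower and 5 higher of 18, with the collagen hydroxylase gene P4ha1 at -1.15 and Tcp11l2 at 0.52. The medians of these lists, in the order just given, were -0.006, -0.07, 0.112 and 0. Without R-2HG replicates 1 and 2 they were 0.024, -0.021, -0.056 and 0.012, resting on 1 R-2HG array.

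**Figure D4:**
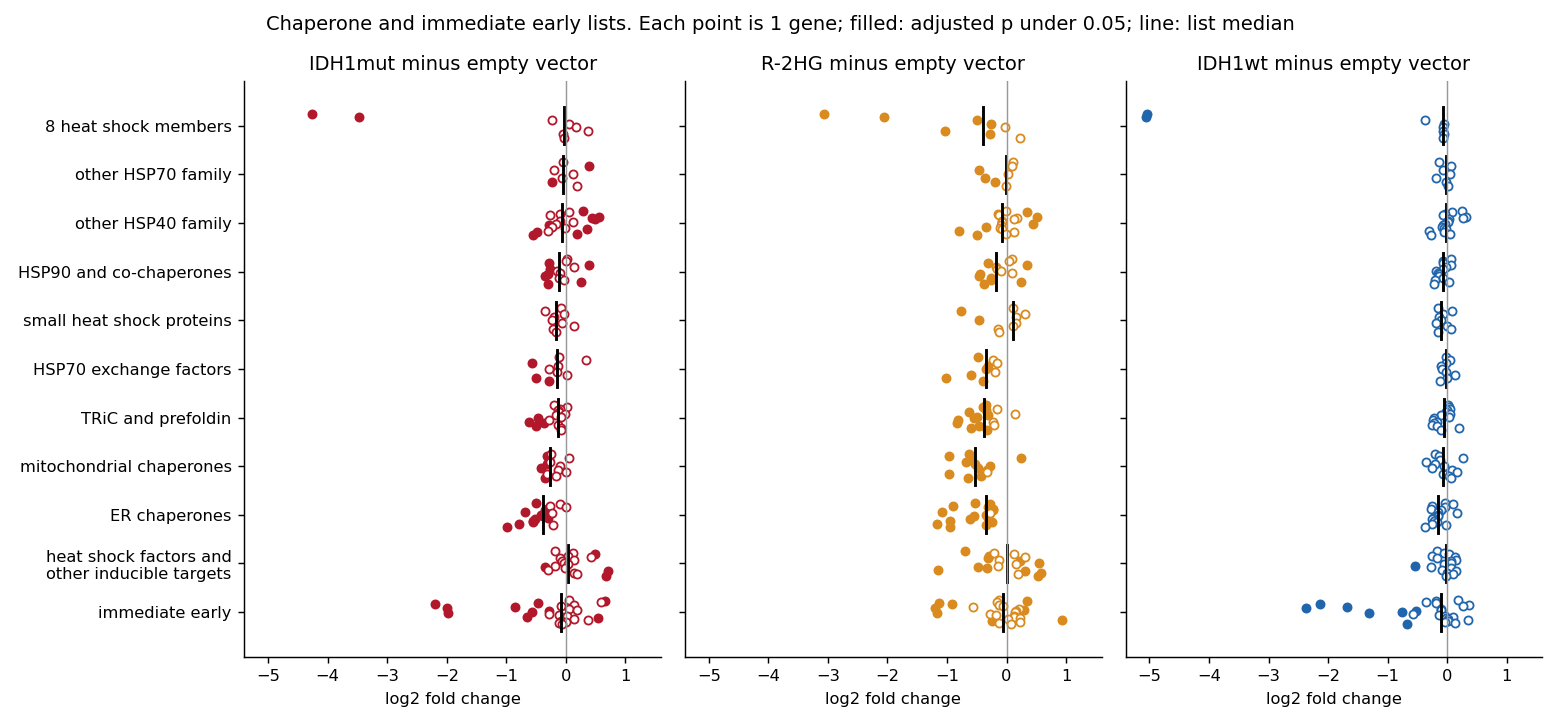
Log2 fold changes against empty vector of the genes of each list, with 1 point per gene and a bar at the median, for IDH1mut, R-2HG and IDH1wt. The 2 lowest points among the 8 heat shock chaperone genes in each comparison are Hspa1a and Hspa1b. The ER chaperone medians lie at -0.381 in IDH1mut and -0.350 in R-2HG. The HSP90 list holds co-chaperones only.

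The genes most like the mean of Hspa1a and Hspa1b over the 12 arrays, by Pearson's r and left without a test because the arrays fall into groups, were Fosb (0.9685), Lipg (0.9539), Tfpi (0.9528), Egr1 (0.9492), Efcab7 (0.9304), Aoc1 (0.9247), Cbx1 (0.9227) and Dhrs13 (0.9082). Fosb, a subunit of the AP-1 transcription factor, was -0.54, -0.55 and -0.41 in IDH1mut, 0.00, -0.10 and 0.99 in R-2HG and -1.03, -0.44 and -1.13 in IDH1wt, against 1.00, 1.72 and 1.79 in empty vector. As for the HSP70 pair, R-2HG replicate 3 was the highest array outside empty vector. In log2 fold change against empty vector Fosb was -2.001 in IDH1mut, -1.20 in R-2HG and -2.36 in IDH1wt, given as a description since the likeness was measured over the same arrays. Egr1, a zinc finger transcription factor induced within minutes of a stimulus, was at -2.20, -0.92 and -2.14 in the same order. The anticoagulant gene Tfpi was at -0.99, -0.68 and -1.01, and the endothelial lipase gene Lipg at -0.79, -0.45 and -0.91. For both, the 3 empty vector arrays held the highest values of the 12.

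Of 25 immediate early genes, 8 were lower and 2 higher in IDH1mut, 5 lower and 3 higher in R-2HG, and 7 lower and 0 higher in IDH1wt, each against empty vector. The shares called were 40%, 32% and 28%, beside 22.6%, 40.8% and 1.35% of all genes, so the R-2HG share was below the background. With R-2HG replicates 1 and 2 left out the R-2HG count was 2 lower and 0 higher, where 11.5% of all genes were called. Jun, the AP-1 partner of Fosb, fell in all 3 comparisons (-1.98 ± 0.17, -1.17 ± 0.17 and -1.31 ± 0.17, adjusted p = 2.36e-05, 0.000359 and 0.00237). Its R-2HG call held without R-2HG replicates 1 and 2 (adjusted p = 0.021). Immediate early genes, like Hspa1a, are known to be induced during dissociation and sorting of cells, and the part of cell handling in these values was not tested.

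**Figure D5:**
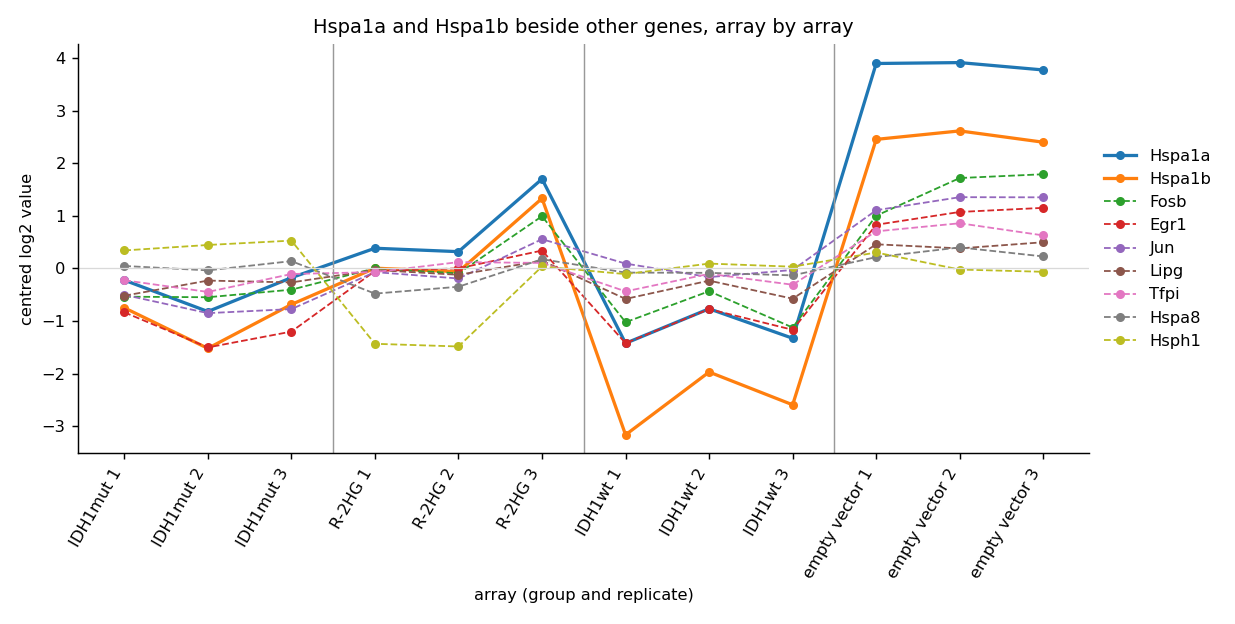
Centred log2 values, in each of the 12 arrays, of Hspa1a and Hspa1b (solid lines) beside Fosb, Egr1, Jun, Lipg, Tfpi, Hspa8 and Hsph1 (dashed lines). The 3 empty vector arrays are the highest for Hspa1a and Hspa1b, and R-2HG replicate 3 is the highest of the other arrays for both.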

How the data were processed

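Biotin-labelled total RNA of the sorted cells was read on Affymetrix mouse arrays, per the labels' protocols. The authors deposited log2 values made by RMA, whose version the submitters' processing notes do not state. The table is centred per probe set: 83.6% of 32533 probe sets hold an exact 0, and values run from -6.48 to 4.93. The reference of the centring is not given in the sources used here. No depth applies to arrays, and 3 arrays per group limit the precision.

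The platform annotation named the probe sets: 28805 had 1 symbol, 757 several and 2971 none. The first kind was averaged per gene, giving 15858 genes, 8510 with 1 probe set. Averaging replaced the planned probe set of highest mean, since centred values carry no level, and filters on dim probes could not be run. No scanner file or scan date was used, so background correction and slide were not varied.

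The model was limma 3.58.1 under R 4.3.3 (lmFit, eBayes; 8 residual and 3.96 prior degrees of freedom), all 12 arrays, 1 coefficient per group. In 6 comparisons, two-sided p-values were adjusted by Benjamini-Hochberg over the 15858 genes and called under 0.05. The fit was tested on simulated data. Figures were drawn with matplotlib 3.10.9.

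The 8 genes, the lists and the tests were chosen with earlier results of these data known. Named are the 8 genes, up to 3 genes with the smallest p of each list in each comparison with empty vector, and the 8 genes most like Hspa1a and Hspa1b. Members and clone or predicted names were left out of the last. Jun and Ier5 fall under the lists. Alternatives were quantile normalization, array centring (without effect), single probe sets, the probe set of highest SD, an SD filter at the 30th percentile, trend, array weights, a fold minimum of 1.5, fits of 6 arrays, a replicate block and each array left out. Leaving out R-2HG replicates 1 and 2 together was added after seeing the data.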

Additional observations from a re-analysis of the deposited data

How the results depend on the processing

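Of 768 values of the 8 genes under alternatives, 656 kept direction and side of the threshold, 62 lost a call, 25 gained one and 25 changed sign. For Hspa1a and Hspa1b against empty vector 97 of 98 kept both, the exception being Hspa1b in R-2HG without R-2HG replicates 1 and 2. The cause of the other changes was not tested.

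The replicate numbers share only a number: 1 of 18 same-numbered pairs correlated above 0.1, and 9 of 36 comparisons of an array with another group were best with its own number. With the number as a replicate block 2, 6 and 2 members were called in IDH1mut, R-2HG and IDH1wt against empty vector, the same counts, with 3258, 6183 and 147 genes in all.

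Counts below run in the order IDH1mut, R-2HG and IDH1wt against empty vector, IDH1mut against IDH1wt, R-2HG against IDH1wt and IDH1mut against R-2HG. All genes called were 3579, 6471, 214, 2484, 7035 and 5714. They were 6320, 11377, 560, 4059, 11714 and 9793 at single probe sets, 930, 1627, 119, 596, 1676 and 1031 with a fold of at least 1.5, and 2427 to 3278, 4588 to 7018, 84 to 214, 1568 to 2135, 4869 to 7508 and 3109 to 6503 with 1 array left out. Without R-2HG replicates 1 and 2 the comparisons with R-2HG gave 1824, 1610 and 336. IDH1wt against empty vector gave 419 after quantile normalization, 382 at the probe set of highest SD and 1388 with array weights.

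Members called in R-2HG against empty vector (6) were 3 with the fold minimum, 1 without R-2HG replicates 1 and 2, and 2 to 7 with 1 array left out. In IDH1mut against IDH1wt (1) they were 2 at the highest SD, with array weights and in 6 arrays, and 0 to 1 with 1 left out. In R-2HG against IDH1wt (5) they were 3 after quantile normalization, with the SD filter, at single probe sets, with the fold minimum and in 6 arrays, 2 without both R-2HG arrays and 2 to 7 with 1 left out. In IDH1mut against R-2HG (5) they were 8 with array weights, 3 with the SD filter or fold minimum and 2 to 8 with 1 left out. The SD filter removed Dnaja1, Dnajb1, Hsp90aa1 and Hspb1 before the fit, so these members could not be called with it.

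Signs turned in IDH1mut against empty vector for Dnajb1 (-0.002) and Hsp90aa1 (0.157) at the highest SD. With 1 array left out Hsp90aa1 ran from -0.082 to 0.022 and Hspb1 from -0.12 to 0.025. In R-2HG Dnaja1 was 0.022 after quantile normalization, 0.1 without R-2HG replicates 1 and 2 and -0.078 to 0.02 with 1 array left out. In IDH1wt Dnaja1 was 0.049 at the highest SD and Hsph1 0.007 with array weights, and with 1 array left out Hsph1 ran from -0.135 to 0.049 and Hspb1 from -0.149 to 0.001. In IDH1mut against IDH1wt leaving out 1 array gave -0.031 to 0.075 for Hsp90aa1 and -0.035 to 0.068 for Hspb1. In R-2HG against IDH1wt Hspa8 was 0.014 after quantile normalization, 0.408 at the highest SD, 0.274 without R-2HG replicates 1 and 2 and -0.315 to 0.012 with 1 left out, and Dnaja1 was -0.171 at the highest SD and -0.001 to 0.097 with 1 left out. Hsph1, called there, was 0.032 (adjusted p = 0.917) without R-2HG replicates 1 and 2. In IDH1mut against R-2HG Hspa8 was -0.126 without them.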

Other observations

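At the probe set of highest SD, Hspa8 fell in IDH1wt against empty vector (-1.27, adjusted p = 0.00996), and Dnaja1 rose in IDH1mut (0.28, adjusted p = 0.042). Hspb1 rose in R-2HG against empty vector with array weights (0.26, adjusted p = 0.00939). Leaving out empty vector replicate 1 also gave that call (adjusted p = 0.0386), as did leaving out R-2HG replicate 3 (adjusted p = 0.0412). The call of Hsp90aa1 in R-2HG was lost in 8 of 16 alternatives.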
